A study of Mus musculus with 2 samples.

Results

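The genes described here encode the nuclear-coded subunits of the mitochondrial respiratory chain and ATP synthase. They were chosen by gene symbol alone, as the names that begin with the Nduf, Sdh, Uqcr, Cox and Atp5 stems of complexes I to V, and 86 of the 23284 genes in the table carry such a symbol. By complex these are 38 genes of complex I, 4 of complex II, 8 of complex III, 19 of complex IV and 17 of complex V. RNA was sequenced from macrophages of infarcted mouse hearts, with 1 Ly6Chi library and 1 Ly6Clo library, both from C57BL/6 mice. The left anterior descending coronary artery had been tied off in all of these animals and the cells were collected on day 3. Not given in the sources used here are the age of the mice, how many were pooled and how the cells were sorted. The symbol rule also takes in 4 genes whose products are not subunits. Cox7a2l encodes a supercomplex assembly factor, Cox4nb is the ER membrane complex gene Emc8 in RefSeq, and Atp5s and Atp5sl are the assembly-related genes Dmac2l and Dmac2 there.

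The measure is a signed comparison statistic, a unitless score for each gene that the authors deposited together with its rank by size. The per-library columns were not used because their headings match neither sample's labels. Hence no level, fold change or counting error is given, and neither sign could be assigned to a population. Results are given by side, negative or positive. Ly6c2, a gene of the antigen that names the populations, marks the negative side and has no other use, with -1.78 in the authors' deposited table. A comparison of 1 library with 1 library has no replicate spread, so no p-value is printed. In bulk RNA a lower share of cells of a type and less RNA per cell cannot be told apart.

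Complexes I to IV pass electrons from NADH and succinate to oxygen and pump protons across the inner mitochondrial membrane, except complex II, which moves none. Complex V, the ATP synthase, lets the protons flow back through a rotor and makes ATP. In macrophages, strong inflammatory activation is known to shift energy supply toward glycolysis, while alternative activation relies more on respiration, and succinate oxidation by complex II feeds reactive oxygen signalling.

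The respiratory chain genes lay close to 0, on both sides. Among the 83 members with a value other than 0, 36 were positive and 47 negative in the authors' deposited table, with a median of -0.014 and a range from -0.36 to 0.49. The median over all 16302 genes with a value was 0.0051 and their range ran from -1.89 to 2.84 in the authors' deposited table. Sizes were also smaller: the median size was 0.063 among members and 0.11 among all genes in the authors' deposited table. Members and all genes were not matched for expression level, since levels were not analysed. A size of 0.1 was used as a round mark that has no error rate. At or beyond it lay 9 positive members, or 10.8%, where the share among all genes was 30.5%. On the negative side 10 members, or 12.0%, reached -0.1, where the share among all genes was 22.3%. The remaining 64 members, 77.1%, lay inside the mark, against 47.3% of all genes. No member reached a size of 0.5, which 6.80% of all genes did. None ranked among the first 1000 genes by size, which hold 4.29% of all genes. Among the first 2000 ranked 3 members, 3.49% against 8.59% of all genes. The scores carry no unit, so a small score is not read as a small fold change.

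**Figure D1:**
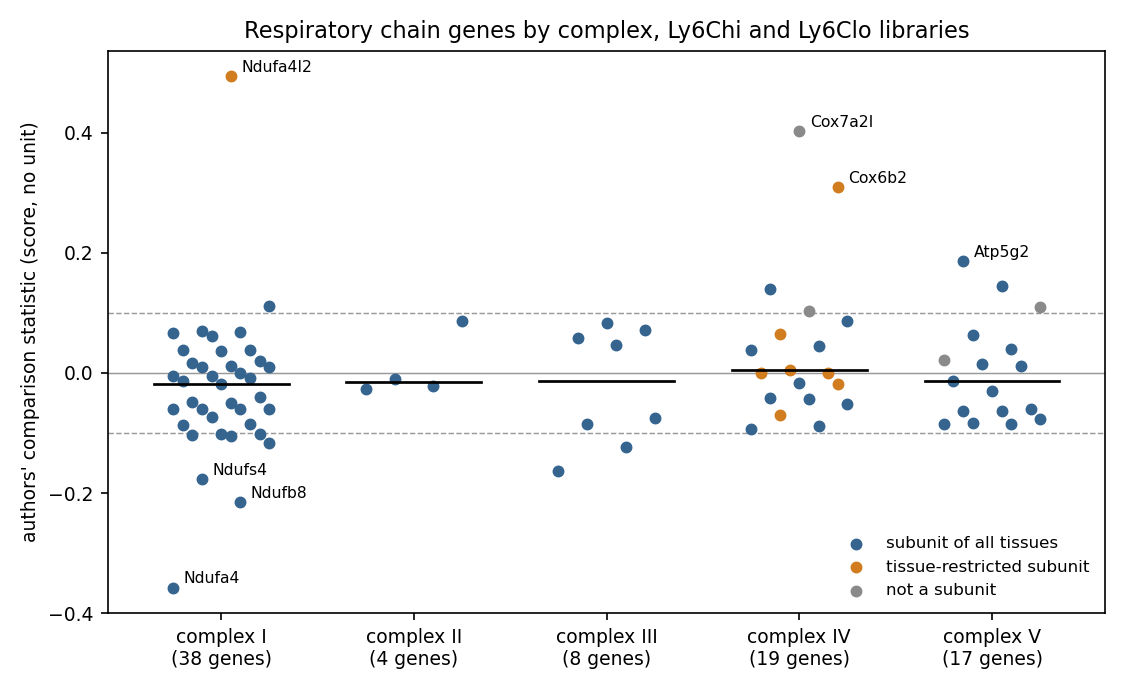
Each point is 1 gene, placed by complex, with the authors' comparison statistic (a score with no unit) on the vertical axis. Black lines are medians of values other than 0 and dashed lines mark 0.1 and -0.1. The medians run from -0.018 in complex I to 0.0046 in complex IV, and Ndufa4 and Ndufa4l2 are the lowest and highest points.

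**Figure D2:**
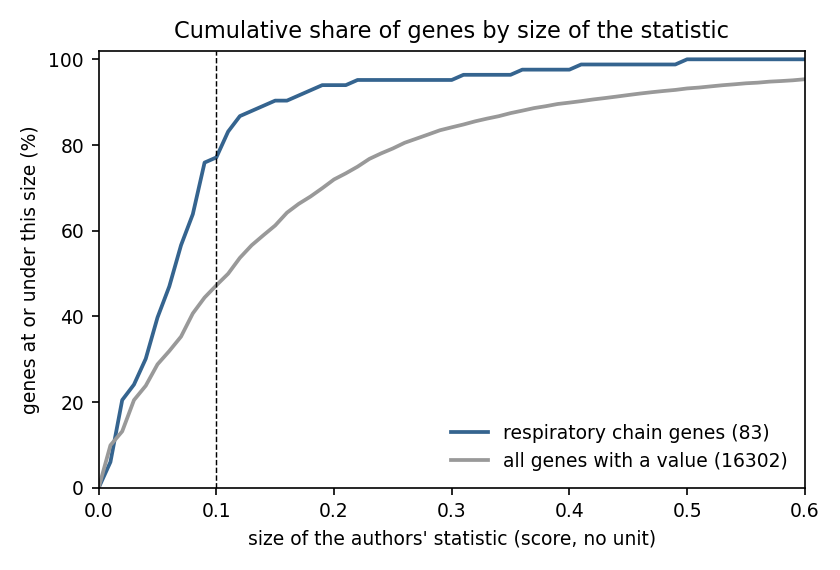
The curves give the share of genes at or under each size of the authors' statistic, for the 83 respiratory chain genes with a value and for all 16302 genes with a value. At the dashed mark of 0.1 the curves stand near 77.1% and 47.3%. The sets were not matched for expression level.

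Of the 83 members with a value, 73, or 88.0%, are subunits found in all tissues. All 10 members at or beyond -0.1 encode such subunits: Ndufa4, Ndufb8, Ndufs4, Ndufs7, Ndufb9, Ndufb7, Ndufa8, Ndufs8, Uqcrq and Uqcrb. Of the 9 positive ones, 4 encode such subunits (Cox8a, Atp5d and Atp5g2 among them), 2 encode tissue-restricted isoforms (Ndufa4l2 and Cox6b2) and 3 encode no subunit (Cox7a2l, Atp5sl and Cox4nb). Over all 73 of these subunits, 28 were positive and 45 negative in the authors' deposited table, with a median of -0.022. The 4 genes that are no subunits were all positive, from 0.022 for Atp5s to 0.40 for Cox7a2l in the authors' deposited table. With so few genes in the smaller kinds, and no test, no difference between kinds is read from these counts.

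Medians by complex lay within a narrow band. Complex I had -0.018, complex II -0.016, complex III -0.014, complex IV 0.0046 and complex V -0.013, computed from the authors' deposited table. With tissue-restricted isoforms and genes that are no subunits left out, complex IV had -0.029 and complex V -0.030, on the same side as complex I at -0.029. The sign of the complex IV median therefore turned with the choice of members. No complex stood apart from the others in its median by as much as the mark of 0.1.

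Promoter sequences were compared next, since nuclear respiratory genes are known targets of the factors NRF1, GABP (an ETS factor) and YY1. RefSeq windows of 300 bases on GRCm38.p6, from 250 before to 50 after a start site, were found for 70 of the 86 members, as 76 windows. Each motif was searched by exact letters on both strands, and matches of different motifs could overlap. The NRF1 motif core CGCATGCG was held by 9 of the 76 windows, 11.8%, and by 1.87% of all 32851 windows. The GABP motif CCGGAAG was held by 16 windows, 21.1%, and by 8.86% of all windows. On the strand of the gene alone it was held by 5 windows, 6.58%, against 4.77% of all windows, so most of its excess came from the other strand. The YY1 motif AAGATGGC was held by 12 windows, 15.8%, and by 2.75% of all windows. At least 1 of these 3 motifs was found in 31 member windows, 40.8%, and in 12.6% of all windows. Member windows were also richer in CpG, with a median of 19.0 CpG per window against 7.0 over all windows, and a median GC content of 57.5% against 52.7%, so base composition differs between the sets compared.

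Among the other motifs, the SP1 motif GGGGCGGGG stood at 15.8% of member windows against 11.4%, the NF-Y motif CCAAT at 42.1% against 37.4% and the TBP motif TATAAA at 10.5% against 13.6%. The CREB motif TGACGTCA was in 4 member windows, 5.26% against 1.79%, a larger ratio than that of GABP but from few windows. The HIF motif TACGTG was in 1, 1.32% against 3.23%. No window was found for Ndufa4l2 or Cox4i2, so this share does not cover these genes. The YY1 motif was found in 7 of 35 windows of complex I, 5 of 20 of complex V and 0 of 3, 5 and 13 windows of complexes II, III and IV. Both windows of Atp5sl, which encodes no subunit, are among the 5 of complex V. These windows overlap, so a match they share is counted in each. All 12 matches of the YY1 motif lay between 100 bases before the start and the end of the window. Of them 9, 75.0%, began at or after the start, against 40.2% of matches over all windows. GABP motifs were spread over all 5 complexes, with 4, 2, 2, 3 and 5 windows in complexes I to V. A match is a stretch of letters and no evidence of binding.

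**Figure D3:**
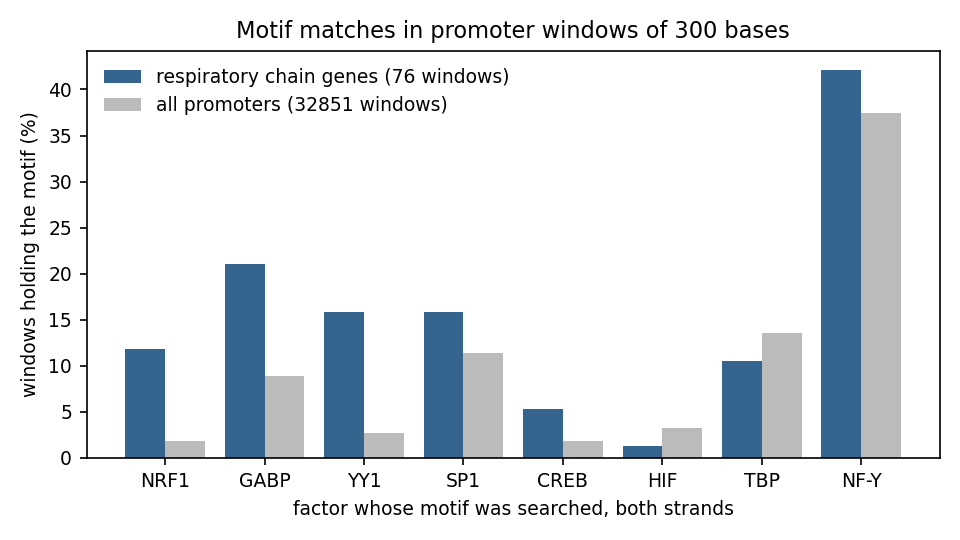
Bars give the percentage of promoter windows of 300 bases that hold the motif of each factor on either strand, for 76 windows of respiratory chain genes and for all 32851 windows. NRF1, GABP and YY1 stand at 11.8%, 21.1% and 15.8% in the respiratory chain genes, against 1.87%, 8.86% and 2.75%.

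Complex I, the NADH dehydrogenase that feeds electrons to ubiquinone, had more negative than positive scores. Of its 38 genes, 14 were positive, 23 negative and 1 exactly 0 in the authors' deposited table. The negative share was 62.2%, above the 47.1% of complex IV, the 52.9% of complex V and the 42.3% of all genes. Among all-tissue subunits alone it was 63.9% in complex I and 60.0% each in complexes IV and V. At or beyond -0.1 lay 8 genes with Ndufa4 among them, 21.6%, near the 22.3% of all genes. At or beyond 0.1 lay 2, 5.41%, against 30.5%. Ndufa4 had the lowest score of all members, -0.36 at rank 1980 in the authors' deposited table. The gene spans 11900372 to 11907450 of chromosome 6 on mm10, and despite its name its product is known to sit in cytochrome c oxidase, complex IV. Ndufb8, an accessory subunit of the distal membrane arm on chromosome 19 from 44548571 to 44555442, followed at -0.21 and rank 4204 in the authors' deposited table. Ndufs4, an accessory subunit of the matrix arm whose loss causes Leigh-like disease, had -0.18 in the authors' deposited table. The promoter windows of the 2 lowest genes are shown 5′ to 3′, from the minus strand of GRCm38.p6, chr6:11907401-11907700 for Ndufa4 and chr19:44555393-44555692 for Ndufb8, with matches to the searched motifs in capitals.
Ndufa4: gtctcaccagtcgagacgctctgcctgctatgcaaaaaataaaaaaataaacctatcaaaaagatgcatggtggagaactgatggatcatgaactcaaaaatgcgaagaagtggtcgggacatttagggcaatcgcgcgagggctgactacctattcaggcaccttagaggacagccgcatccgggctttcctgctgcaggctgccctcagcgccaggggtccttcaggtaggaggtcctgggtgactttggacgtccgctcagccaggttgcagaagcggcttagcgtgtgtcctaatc
Ndufb8: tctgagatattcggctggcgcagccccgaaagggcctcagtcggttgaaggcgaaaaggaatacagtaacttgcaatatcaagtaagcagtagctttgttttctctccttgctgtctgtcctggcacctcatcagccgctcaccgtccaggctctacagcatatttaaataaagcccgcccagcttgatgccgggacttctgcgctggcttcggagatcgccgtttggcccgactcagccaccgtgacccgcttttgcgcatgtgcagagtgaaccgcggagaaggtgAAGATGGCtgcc
The Ndufb8 window holds the YY1 motif, which begins 38 bases after the start, and the windows of Ndufs4 and Ndufs7 hold it too. None of the 8 searched motifs occurs in the Ndufa4 window.

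Catalytic subunits of complex I lay on both sides of 0. Ndufv1, which binds NADH and the flavin, had 0.069, and its iron-sulfur partner Ndufv2 had 0.039 in the authors' deposited table. Ndufs1, the large iron-sulfur subunit that carries electrons on from the flavin, had -0.0050 in the authors' deposited table. Ndufs7, a subunit at the ubiquinone site, had -0.12 in the authors' deposited table. The iron-sulfur subunit Ndufs8 had -0.10 and Ndufs3 had 0.011 in the authors' deposited table.

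The accessory subunits of complex I were mostly negative. Leaving out Ndufa4 and Ndufa4l2, 19 were negative, 67.9% against 42.3% of all genes, and 9 positive in the authors' deposited table. Their median was -0.044, computed from the authors' deposited table. At or beyond -0.1 lay 5, 17.9% against 22.3% of all genes. By symbol group, 6 of 10 Ndufb genes, which build the distal membrane arm, were negative, 60.0% against 42.3% of all genes. Their median was -0.060 and their range ran from -0.21 to 0.066 in the authors' deposited table. Ndufb9 and Ndufb7 had -0.10 each, as did Ndufa8, a cysteine-rich subunit of the intermembrane space, in the authors' deposited table. No accessory subunit of this set reached 0.1, against 30.5% of all genes, and Ndufv3 was its highest at 0.071 in the authors' deposited table. All 3 Ndufv genes were positive, from 0.039 to 0.071 in the authors' deposited table. Ndufab1, the mitochondrial acyl carrier protein, had -0.048 and Ndufa13 had -0.0051 in the authors' deposited table. Ndufs5 is listed at exactly 0, a value it shares with 6981 other genes in the authors' deposited table, and no difference is read from it.

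Complex II, succinate dehydrogenase, oxidises succinate in the citrate cycle and passes the electrons to ubiquinone. All 4 of its genes lay inside the mark. The flavin subunit gene Sdha had 0.086 in the authors' deposited table. The iron-sulfur subunit gene Sdhb and the membrane anchor genes Sdhc and Sdhd had -0.022, -0.026 and -0.0094 in the authors' deposited table. Sdha thus lay on the side opposite to its 3 partners, with a score under 0.1 in size.

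Complex III, the cytochrome bc1 complex, moves electrons from ubiquinol to cytochrome c, and its 8 genes divided into 4 positive and 4 negative in the authors' deposited table. Uqcrq, a small subunit next to cytochrome b, had -0.16 at rank 5682, and Uqcrb, a ubiquinone-binding protein, had -0.12 in the authors' deposited table. The core protein genes were split, with Uqcrc1 at -0.085 and Uqcrc2 at 0.047 in the authors' deposited table. Uqcrfs1, the Rieske iron-sulfur protein, had 0.058 in the authors' deposited table. The small subunit genes Uqcr11, Uqcrh and Uqcr10 had -0.075, 0.072 and 0.084 in the authors' deposited table. Cyc1, the cytochrome c1 subunit that the symbol rule does not take in, had -0.13 in the authors' deposited table, on the side of Uqcrq and Uqcrb.

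Complex IV, cytochrome c oxidase, reduces oxygen to water and is the complex with the most tissue isoforms. Of its 19 listed genes, 9 were positive, 8 negative and 2 exactly 0 in the authors' deposited table, and 4 reached 0.1, or 23.5% against 30.5% of all genes. None reached -0.1, against 22.3% of all genes. The 4 are Cox7a2l, Cox6b2, Cox8a and Cox4nb. Ndufa4, counted by its symbol with complex I, is left out of these counts and had -0.36 in the authors' deposited table. Cox7a2l, on chromosome 17 from 83501917 to 83514333, had 0.40 at rank 1629 in the authors' deposited table. Cox8a, the common isoform of a small membrane subunit, had 0.14 in the authors' deposited table. The remaining common subunits lay inside the mark, from -0.093 for Cox7b to 0.086 for Cox6c in the authors' deposited table. Cox5a and Cox5b had -0.017 and -0.042, and Cox4i1, the common regulatory isoform, had -0.052 in the authors' deposited table. Cox4nb lies 137 bases from Cox4i1 on chromosome 8, and scored 0.10 in the authors' deposited table, opposite in sign.

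Isoforms of the same complex IV subunit did not always share a side. Cox6b2, known as the testis isoform of a subunit on the cytochrome c side, lies on chromosome 7 from 4751792 to 4753094 and had 0.31 at rank 2487.5 in the authors' deposited table. Its common paralog Cox6b1 had 0.038 in the authors' deposited table. Cox4i2, an isoform of lung and of low oxygen, had 0.064 in the authors' deposited table, opposite in sign to Cox4i1. The heart and muscle isoform genes Cox6a2, Cox7a1 and Cox8b had -0.019, 0.0046 and -0.070 in the authors' deposited table, and their common paralogs Cox6a1, Cox7a2 and Cox8a had -0.043, -0.088 and 0.14. Cox7b2 and Cox8c, known from testis, are listed at 0 in the authors' deposited table. All 6 tissue-restricted isoforms with a value share that exact value with other genes, Cox8b within a set of 63 and Cox4i2 within a set of 13 genes in the authors' deposited table. Among subunits of all tissues 1 of 73 shares its value, 1.37%, against 35.2% of all genes with a value. The windows of the pair with the larger positive score are chr7:30626065-30626364 for Cox6b1 and chr7:4753045-4753344 for Cox6b2, both from the minus strand of GRCm38.p6, with searched motifs in capitals.
Cox6b1: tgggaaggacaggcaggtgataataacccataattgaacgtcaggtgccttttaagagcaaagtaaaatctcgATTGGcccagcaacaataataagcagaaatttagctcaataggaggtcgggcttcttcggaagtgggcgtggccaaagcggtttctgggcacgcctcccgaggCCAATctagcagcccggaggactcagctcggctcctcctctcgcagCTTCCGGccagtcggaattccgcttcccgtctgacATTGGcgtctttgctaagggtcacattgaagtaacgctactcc
Cox6b2: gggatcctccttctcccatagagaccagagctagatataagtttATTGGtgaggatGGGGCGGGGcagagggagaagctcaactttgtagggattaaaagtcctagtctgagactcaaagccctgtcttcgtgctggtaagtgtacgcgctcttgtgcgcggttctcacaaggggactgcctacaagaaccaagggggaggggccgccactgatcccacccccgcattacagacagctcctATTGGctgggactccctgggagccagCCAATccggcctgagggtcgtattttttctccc
The common gene holds the GABP motif on the other strand, 28 bases before its start, and the testis gene holds the SP1 motif 194 bases before its start. Both hold 3 NF-Y motifs.

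The widest gap between paralogs was that of Ndufa4 and Ndufa4l2. Ndufa4l2, on chromosome 10 from 127509274 to 127517154, had 0.49 at rank 1139 in the authors' deposited table, the highest score of all members. It is known as a target of hypoxia-inducible factor whose product lowers complex I activity. The pair differed by 0.85 on the scale of the statistic. The value of Ndufa4l2 is shared by 3 genes, itself included, in the authors' deposited table, and that of Ndufa4 by no other gene. The difference between Cox7a2l and Cox7a2 was 0.49, and that between Cox6b2 and Cox6b1 was 0.27.

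**Figure D4:**
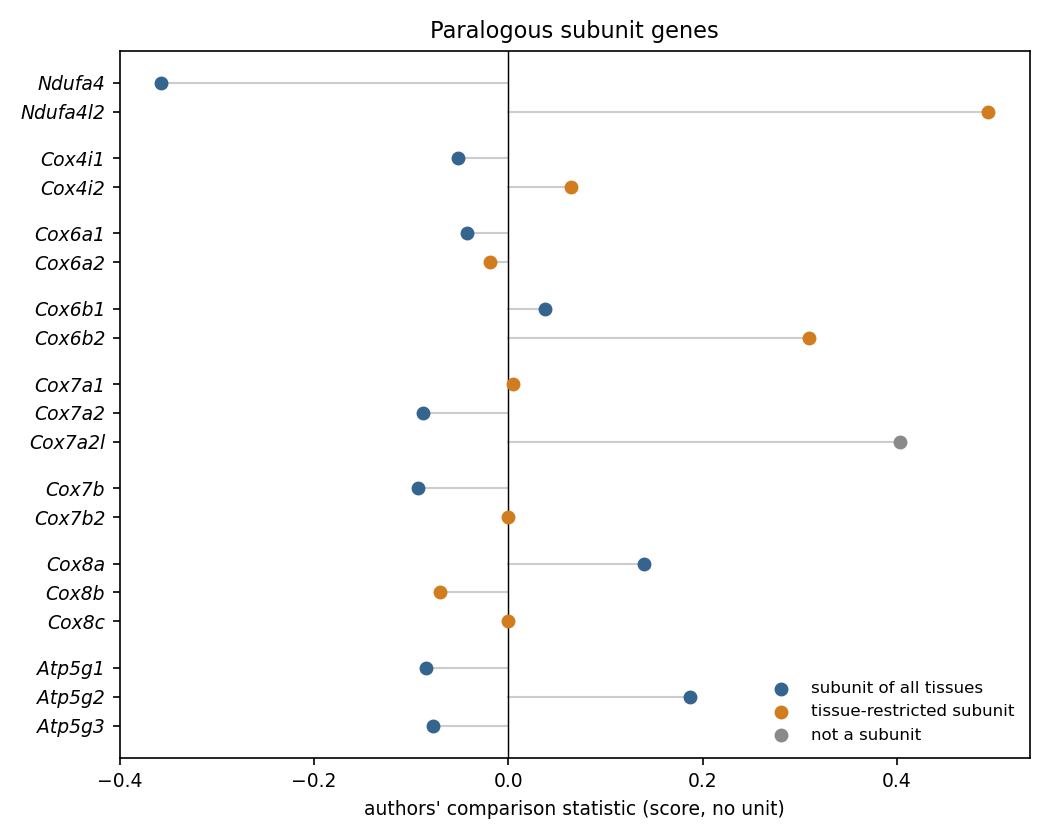
The horizontal axis is the authors' comparison statistic (a score with no unit), and each line runs from 0 to the value of 1 gene, with paralogs grouped. Ndufa4 at -0.36 and Ndufa4l2 at 0.49 lie at the ends, and Atp5g2 at 0.19 lies opposite to Atp5g1 and Atp5g3.

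Complex V, the ATP synthase, had 8 positive and 9 negative genes in the authors' deposited table, of which 3 reached 0.1, 17.6% against 30.5% of all genes. One of these, Atp5sl, encodes no subunit, and no gene reached -0.1, against 22.3% of all genes. The catalytic F1 head lay at or near 0: Atp5a1, Atp5b and Atp5c1, which encode its alpha, beta and gamma subunits, had 0.012, -0.013 and 0.016 in the authors' deposited table. Atp5d, the delta subunit of the central stalk, had 0.15, while its partner Atp5e, the epsilon subunit, had -0.063 in the authors' deposited table. Among 10 genes of the membrane rotor and peripheral stalk, 7 were negative, 70.0% against 42.3% of all genes. Their median was -0.0615, computed from the authors' deposited table. Atp5l, Atp5h, Atp5f1 and Atp5j2 had -0.085, -0.083, -0.063 and -0.060 in the authors' deposited table. Atp5o, which joins the stalk to the head, had 0.063, and Atp5j and Atp5k had -0.030 and 0.040 in the authors' deposited table. Atp5sl had 0.11 in the authors' deposited table.

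Genes for the rotor ring lay on both sides. Atp5g1, Atp5g2 and Atp5g3 are known to encode the same mature subunit c behind different import sequences. Atp5g2, on chromosome 15 from 102662868 to 102671047, had 0.19 at rank 4992 in the authors' deposited table. Atp5g1, on chromosome 11 from 96072793 to 96075694, had -0.085 and Atp5g3, on chromosome 2 from 73908447 to 73912464, had -0.077 in the authors' deposited table. The negative genes differed from each other by 0.0075 on the scale of the statistic, and Atp5g2 differed from them by 0.27 and 0.26. Their promoter windows, all from the minus strand of GRCm38.p6, are chr11:96075582-96075881, chr15:102670998-102671297 and chr2:73911277-73911576, with searched motifs in capitals.
Atp5g1: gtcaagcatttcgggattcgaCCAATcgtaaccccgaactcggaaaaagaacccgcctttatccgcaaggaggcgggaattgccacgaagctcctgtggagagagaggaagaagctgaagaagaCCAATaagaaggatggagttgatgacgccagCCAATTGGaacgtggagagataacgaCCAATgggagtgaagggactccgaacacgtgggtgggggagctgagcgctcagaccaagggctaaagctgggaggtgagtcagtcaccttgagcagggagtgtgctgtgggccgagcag
Atp5g2: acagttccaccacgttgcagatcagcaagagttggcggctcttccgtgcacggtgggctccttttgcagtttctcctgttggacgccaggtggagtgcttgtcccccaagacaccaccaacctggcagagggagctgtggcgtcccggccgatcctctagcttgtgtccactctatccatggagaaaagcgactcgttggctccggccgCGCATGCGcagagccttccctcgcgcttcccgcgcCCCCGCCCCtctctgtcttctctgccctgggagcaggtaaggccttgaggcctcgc
Atp5g3: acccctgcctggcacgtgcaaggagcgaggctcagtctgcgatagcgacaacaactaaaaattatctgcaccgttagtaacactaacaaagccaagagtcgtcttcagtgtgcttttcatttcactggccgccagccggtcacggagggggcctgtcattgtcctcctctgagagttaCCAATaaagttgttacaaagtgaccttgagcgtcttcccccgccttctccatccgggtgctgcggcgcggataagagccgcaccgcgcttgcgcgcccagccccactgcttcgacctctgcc
Atp5g2 holds the NRF1 motif 41 bases before its start and the SP1 motif 6 bases before it, and no NF-Y motif. Atp5g1 holds 5 NF-Y motifs, of which those at 95 and 92 bases before the start overlap. Atp5g3 holds 1, and neither window has a match to NRF1 or SP1. The whole Atp5g3 window lies inside the span of its gene, which ends at 73912464. Sequence at that 5′ end was not searched, so no contrast between the promoters is drawn.

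Genes that work beside the chain were taken from lists of related function. The 8 partners and missed subunits had 5 members at or beyond -0.1, 62.5% against 22.3% of all genes, and 2 at or beyond 0.1, 25.0% against 30.5%, with a median of -0.11 computed from the authors' deposited table. Cycs, the electron carrier cytochrome c, had -0.13, as did Cyc1, and the phosphate carrier Slc25a3 had -0.17 in the authors' deposited table. The small ATP synthase subunits Usmg5 and 2010107E04Rik had -0.12 and -0.11 in the authors' deposited table. On the other side were the adenine nucleotide carrier Slc25a4 at 0.23, a heart and muscle isoform, and Atpif1, the inhibitor of ATP synthase, at 0.15 in the authors' deposited table. Its more widely expressed relative Slc25a5 had -0.039 in the authors' deposited table.

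Assembly factors, which build the complexes without staying in them, had no common side. Of 47 factors, 23 were positive, 22 negative and 2 exactly 0, with a median of 0.0080 computed from the authors' deposited table. At or beyond 0.1 lay 8, 17.8% against 30.5% of all genes, and at or beyond -0.1 lay 9, 20.0% against 22.3%. Tmem126b, of the complex I intermediate assembly complex, had -0.245, and Bcs1l, which inserts the Rieske protein into complex III, had 0.20 in the authors' deposited table. Ndufaf1 and Nubpl, of complex I, had 0.18 and 0.17 in the authors' deposited table.

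Citrate cycle and pyruvate dehydrogenase genes divided into 9 positive and 9 negative, with a median of -0.00027 computed from the authors' deposited table. Fh1, fumarase, had 0.39, the isocitrate dehydrogenase subunit gene Idh3g 0.24, the citrate synthase gene Cs 0.19 and the pyruvate dehydrogenase component gene Pdhx -0.15 in the authors' deposited table. Of 14 regulators of mitochondrial biogenesis, 4 reached 0.1, a share of 28.6% near the 30.5% of all genes, and none -0.1, with a median of 0.025 computed from the authors' deposited table. Ppargc1b, a coactivator of respiratory genes, had the largest score at 0.62, followed by Pprc1 at 0.18, the mitochondrial DNA packaging factor Tfam at 0.16 and the mitochondrial RNA polymerase Polrmt at 0.13 in the authors' deposited table. Nrf1, Gabpa and Yy1, whose motifs were counted above, had 0.021, -0.039 and -0.057 in the authors' deposited table. Subunits encoded in mitochondrial DNA, 13 in number, were not analysed here.

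**Figure D5:**
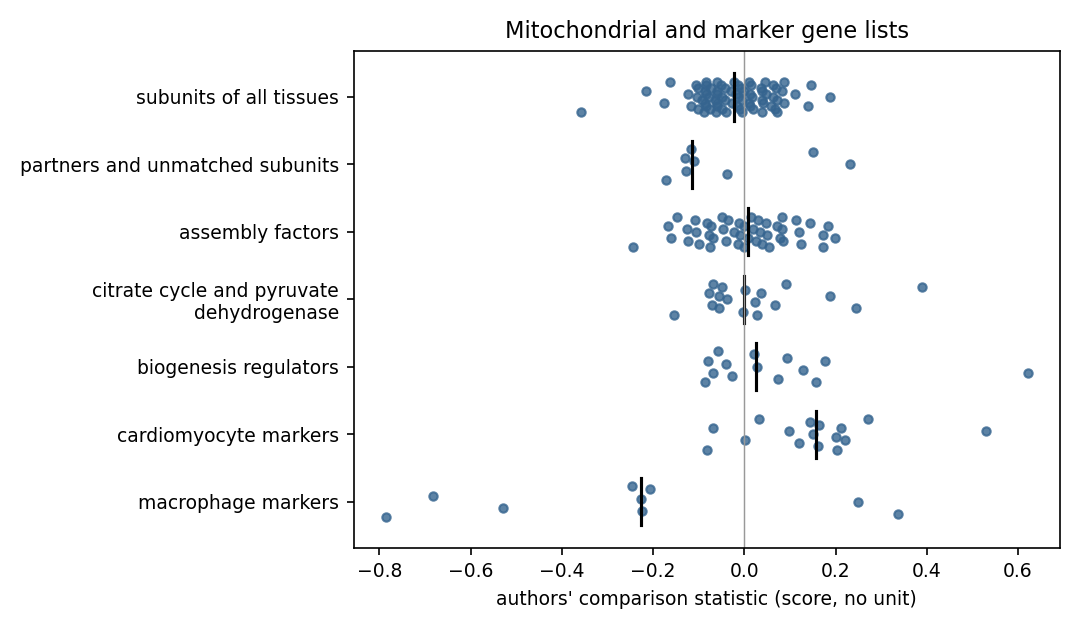
Each point is 1 gene of a list, placed by the authors' comparison statistic (a score with no unit), and black lines are medians of values other than 0. Subunits of all tissues centre on -0.022 and assembly factors on 0.0080, and Ppargc1b is the point at 0.62.

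Cell type markers had a median size of 0.25 for macrophages, 0.16 for cardiomyocytes, 0.28 for endothelium and 0.37 for neutrophils, against 0.063 for the respiratory chain genes, computed from the authors' deposited table. Single markers lay lower. Of 9 macrophage markers, none was at 0, 7 were negative and 2 positive, from -0.79 for Fcgr1 to 0.34 for C1qa in the authors' deposited table. Since levels were not analysed, the labelled cell type could be checked no further. All 8 fibroblast and all 8 dendritic cell markers were positive, with ranges of 0.65 to 2.14 and 0.24 to 2.84 in the authors' deposited table. Of 16 cardiomyocyte markers, 14 were positive and none was at 0, from -0.081 for Tnnc1 to 0.53 for Tnnt2 in the authors' deposited table. Of these 16, 14 share their exact value with other genes. The heart isoform genes Cox6a2, Cox7a1 and Cox8b lay under 0.1 in size, as did 5 of the 16 markers. Each of these isoform genes also shares its exact value with other genes. Of 6 endothelial markers 4 were negative and 2 positive, from -0.57 to 0.072, and of 6 neutrophil markers 4 were positive, 1 negative and Elane at 0, from -0.035 to 0.54, in the authors' deposited table. The part of these cells in the respiratory chain scores was not tested.

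Position in the genome gave no common side. The members lie on 19 chromosomes, with 10 on chromosome 7. Of 6 neighbouring pairs less than 500 kb apart, 2 shared a side and 4 did not. One of the latter was the pair of Atp5d and Ndufs7, 103 kb apart on chromosome 10, with 0.15 and -0.12 in the authors' deposited table. RefSeq names 18 pseudogenes after 13 of the members, among them 4 of Atp5k and 2 each of Uqcrh and Atp5l. How shared reads were counted among such copies is not stated in the sources, and scores of these genes are uncertain to that extent.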

How the data were processed

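RNA was measured in 1 library of Ly6Chi and 1 library of Ly6Clo macrophages. CASAVA 1.8.2, TopHat and mm10 are named, per the submitters' processing notes. Not given in the sources used here: counting program, annotation, strand handling and formula of the score. Per the file headers, the authors deposited a score (the column named statistic) and its rank for each gene. Ranks recomputed from absolute scores matched within 1e-06 for 23284 of 23284 genes. Another 2 columns, of per-library values, match no label and were left out, so no CPM was computed and depth was not analysed here.

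Members were found by symbol, and 82 symbols were current in RefSeq (GRCm38.p6, the assembly of mm10) and 4 matched through a synonym. Scores were summarised by counts, medians and ranges, with scores of exactly 0 apart, and no test was run. Named genes were all members of complexes II and III, and in the other complexes those at or beyond 0.1, the nearest to 0, the isoform, core, head and stalk groups, and up to 4 of each other list. Genes outside this rule (Cox4i1, Cox5b, Cox6a1, Cox6b1, Cox6c, Cox7a2, Cox7b, Ndufa8, Ndufab1, Ndufv3, Atp5s, Usmg5, 2010107E04Rik, Slc25a5, Nrf1, Gabpa, Yy1 and Tnnc1) and Ly6c2 were named after their values were seen, and 1 gene under the rule is not reported here. Members, lists and motifs were chosen with earlier results of these data known. Summaries and motif search were checked on simulated data. Versions were Python 3.11.15, pandas 2.3.3, NumPy 2.4.6, Matplotlib 3.10.9 and SciPy 1.17.1.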

Additional observations from a re-analysis of the deposited data

How the results depend on the processing

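No paired analysis was possible because the comparison is of 1 library with 1 library, so none could be left out either. The median of all members moved from -0.014 to -0.060 when only sizes of 0.05 or more were kept, and its other alternatives stayed negative. The complex IV median turned from 0.0046 to -0.0062 with Ndufa4 counted there and to -0.017 without genes that are no subunits. Means in place of medians gave 0.0071 for complex II, 0.0022 for complex V and 0.028 for the citrate cycle list, on the other side from their medians. Counts of members depend on the mark: 20 positive and 30 negative at 0.05, 3 and 2 at 0.2, and 0 and 0 at 0.5. The shares of all genes at those marks were 39.6% and 31.5%, 18.0% and 10.0%, and 5.39% and 1.41%. Without tissue-restricted isoforms 7 were positive and 10 negative at 0.1, and without genes that are no subunits 6 and 10. With genes at 0 included, the shares among all genes fell to 21.3% and 15.6%. When motifs were searched on the strand of the gene only, the share of member windows was 6.58% for GABP, 6.58% for SP1, 3.95% for TBP and 22.4% for NF-Y, and 4.77%, 6.05%, 8.32% and 21.1% over all windows. The NRF1 and CREB motifs read the same on both strands, so their shares could not change. Shares for YY1 and HIF stayed inside their exact binomial interval. The removal of non-subunits with Cox4nb among them and the inclusion of genes at 0 in the shares were chosen after seeing the data. Filters, scalings and pseudocounts on counts were not run, since they need the values per library.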
